A study of Rattus norvegicus with 40 samples.

Results

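The potassium channel genes were taken here as every gene whose symbol starts with Kcn, has a probe set annotated to it alone and reached a mean log2 intensity of 5 over all arrays. Of 75 such genes with a probe set of their own, 43 reached that level, among 10300 named genes that did. Each gene was represented by its brightest probe set. Intensities under 16 were raised to that floor before log2 was taken. Kcna5 lay just inside the level at 5.03 and Kcnk9 just outside it at 4.92. The arrays measured total RNA of rat cerebral cortex, 20 from samples labelled as hypoxic preconditioning and 20 from sham samples kept in normoxia. Sample numbers 1 to 20 were used in each group, and the labels list them in 4 runs of 5 preconditioned and 5 sham samples, 1-5, 6-10, 11-15 and 16-20. What the runs stand for is not given in the sources used here, and neither are the strain, sex and age of the rats, the oxygen level, the length of exposure or the time of sampling. The labels do not say that each sample is a separate animal, and each p-value therefore rests on the scatter among these samples alone, which could be technical.

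Potassium channels set the resting potential of neurons and glia and repolarise neurons after each action potential. Voltage-gated (Kv) channels are built of pore subunits such as Kcna, Kcnc, Kcnd and Kcnq and of auxiliary subunits such as Kcnab, Kcne and Kcnip, which change their gating and their traffic to the membrane. Inward rectifiers (Kcnj), two-pore channels (Kcnk) and calcium-activated channels (Kcnma1, Kcnn) carry current near rest or couple it to G proteins, ATP, acid or calcium, and several of them are known for their response to low oxygen or low ATP. The genes above the level covered most branches of the family. All 4 Kcnip genes, all 3 Kcnc and all 3 Kcnd genes were above it, as were 4 of 6 Kcna, 2 of 3 Kcnab, 1 of 4 Kcne and 3 of 8 Kcnh genes. Of the electrically silent subunits (Kcnf, Kcng, Kcns and Kcnv) 4 of 7 were above it, of Kcnj 7 of 15, of Kcnk 6 of 11, of Kcnq 2 of 3 and of Kcnn 1 of 3. The calcium-activated large-conductance (BK) group gave 2 of 3 genes, Kcnma1 and Kcnmb4, and Kcnt1 was the 1 Kcnt gene with a probe set. Kcnb2, the 1 Kcnb gene with a probe set, was not above it. Kcnj10, the inward rectifier of astrocytes, and Kcna1, the axonal Kv1.1 subunit, stayed below at 4.26 and 4.71. Kcne1, Kcnj1 and Kcnn4 lay at the floor on all 40 arrays.

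Array medians on the log2 scale ran from 5.53 to 5.82. Preconditioned arrays 6 and 5 had the lowest medians, 5.53 and 5.59, and leaving both out ended 1 call among the genes named here, that of Kcnk2 in both groups together (0.11, adjusted p = 0.082 in limma). As a sign of RNA quality, the actin control was 1.38 to 1.90 times brighter at its 3' than at its 5' end, and the same ratio for GAPDH lay between 0.892 and 1.06. Of the 6 markers of excitatory neurons 5 passed the level, among them the cortical factors Neurod6 at 10.54 and Tbr1 at 7.03, and of the 7 inhibitory markers 6 did. Within a group and run, the 5 arrays spread by a median standard deviation of 0.23 over the 43 potassium channel genes, from 0.09 for Kcnmb4 to 0.43 for Kcne2, against 0.18 over all probe sets.

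The results turn on Kcne3, which differed between preconditioned and sham cortex, and on a group of genes, Kcnip2 and Kcnq5 among them, that differed between the runs. Their promoters are shown so that the start regions of the 3 genes can be set side by side, each from 250 bases before to 50 bases after the start in the RefSeq table of assembly GRCr8. Capitals mark matches, on either strand and also where matches overlap, to ACGTG, the core of the hypoxia response element, to GCGTG, its variant, and to GGGCGG, the GC box.
Kcne3: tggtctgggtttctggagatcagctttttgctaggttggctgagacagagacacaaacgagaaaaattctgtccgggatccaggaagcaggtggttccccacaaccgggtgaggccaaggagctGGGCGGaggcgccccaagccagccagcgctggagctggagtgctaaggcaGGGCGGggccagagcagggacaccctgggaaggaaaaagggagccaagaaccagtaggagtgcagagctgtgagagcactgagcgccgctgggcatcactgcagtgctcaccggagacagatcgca
Kcnip2: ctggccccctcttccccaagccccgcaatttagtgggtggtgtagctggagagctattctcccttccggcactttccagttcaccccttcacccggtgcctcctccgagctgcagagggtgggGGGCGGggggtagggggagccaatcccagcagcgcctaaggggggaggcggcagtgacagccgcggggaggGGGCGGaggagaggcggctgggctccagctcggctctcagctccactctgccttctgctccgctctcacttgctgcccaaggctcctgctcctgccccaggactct
Kcnq5: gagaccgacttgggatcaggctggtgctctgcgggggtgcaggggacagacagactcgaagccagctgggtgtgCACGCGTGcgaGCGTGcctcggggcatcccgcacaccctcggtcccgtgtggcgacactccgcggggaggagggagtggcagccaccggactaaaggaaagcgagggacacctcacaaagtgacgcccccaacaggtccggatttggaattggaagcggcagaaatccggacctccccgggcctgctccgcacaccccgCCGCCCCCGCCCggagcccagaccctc
Kcne3 lies at chr1:163935785-163936084 on the plus strand, Kcnip2 at chr1:254613849-254614148 on the minus strand and Kcnq5 at chr9:31891232-31891531 on the minus strand. The Kcne3 and Kcnip2 windows each held 2 GC boxes and no match to ACGTG or GCGTG. The Kcnq5 window held 3 matches to GCGTG and 2 to GGGCGG. A promoter was listed for 30 of the 43 genes, Kcnip4, Kcnv1 and Kcnh3 not among them. ACGTG occurred in 6.67% of these 30, against 19.3% of all 33469 promoters of the same length, and GCGTG in 43.3% against 29.7%. GGGCGG occurred in 56.7% against 33.1%, and TATAAA, the TATA box, in 0 of 30, against 14.2%. The median number of CG dinucleotides per window was 21 in the potassium channel genes and 7 over all promoters. These matches are a description of the letters in the windows.

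After preconditioning, none of the 43 genes changed at an adjusted p under 0.05 in any run, and their differences were small. These are calls of the main fit, which took no samples as pairs. With the sample number as a block, 1 gene was called, in numbers 1-5. In numbers 1-5 limma called 0 of 43, against 2.39% of all probe sets, and 1 of them, Kcnv1, had an unadjusted p under 0.05. In numbers 6-10 it called 0, against 2.22%, with 4 at an unadjusted p under 0.05. In numbers 11-15 it called 0, against 0.0699%, with 3 at an unadjusted p under 0.05, and in numbers 16-20 it called 0, against 0%, with 4. The average of the 4 runs gave 0, against 4% of all probe sets, with 2 at an unadjusted p under 0.05, and the test of whether the effect differed between the runs gave 0, against 0.763%, with 3. The median difference of the 43 genes was 0.01, -0.01, 0.01 and 0.00 in the 4 runs, beside -0.03, -0.02, 0.00 and 0.00 over all probe sets. The 95% interval of a gene reached a median of 0.28 to either side within a run and 0.14 in the average, and for all 43 genes the interval of the average lay within 0.5 of 0 in both directions. Within runs, smaller changes were thus not detectable for most of these genes with 5 arrays a group. The intervals are not adjusted for the number of probe sets tested, so larger differences could go uncalled as well. The -0.58 of Kcnk13 in numbers 16-20, for instance, had an adjusted p of 0.91 in limma.

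**Figure D1:**
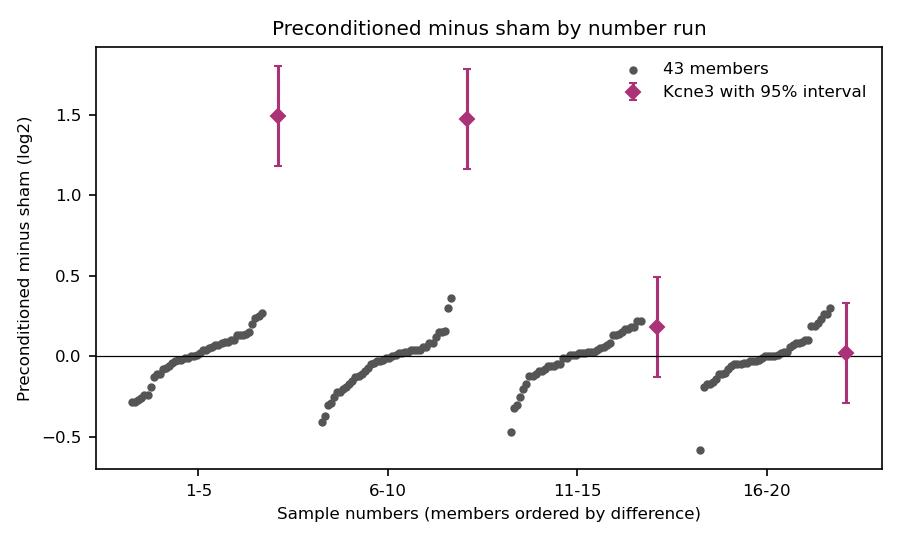
Preconditioned minus sham difference on the log2 scale in each number run. Grey points are the 43 potassium channel genes, ordered by size within a run, and the purple diamonds are Kcne3, which lies under the level, with its 95% interval from the fit of all probe sets. The 43 genes lie between -0.58 and 0.36, while Kcne3 lies at 1.49 and 1.47 in numbers 1-5 and 6-10 and at 0.18 and 0.02 in the other runs.

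Among pore subunits, Kcna2, which forms Kv1.2 channels of axons, lay between 8.35 and 8.68 on the preconditioned arrays 1-5 and between 8.10 and 8.42 on the sham arrays. Its difference of 0.27 ± 0.13 (SE, n = 5 and 5) was the highest of the 43 in that run and did not pass the limma test (adjusted p = 0.30). Kcnc1, the Kv3.1 subunit of fast-spiking neurons, differed by 0.15, -0.03, -0.25 and -0.05 in the 4 runs, with adjusted p from limma of 0.40 or more. Kcnd2, the Kv4.2 subunit of the dendritic A-type current, differed by -0.08, 0.12, -0.01 and 0.23 on its brightest probe set, and Kcnip1, one of its calcium-binding partners, by -0.11, -0.02, 0.01 and -0.17. Kcnh1, an ether-a-go-go channel, lay between 6.32 and 6.93 on the preconditioned arrays 6-10 and between 6.08 and 6.68 on the sham arrays. The groups overlapped, and its difference of 0.30 ± 0.11 had an adjusted p of 0.16 in limma, which was 0.035 (difference 0.37) when each array was centred on its median. Kcnv1, a silent Kv subunit, was at 7.44, 7.61, 7.72, 7.69 and 7.94 on the preconditioned arrays 1 to 5 and at 7.87, 7.89, 8.14, 8.05 and 7.84 on the sham arrays. Only preconditioned array 5 reached into the sham range, and the difference was -0.28 ± 0.10 with an adjusted p of 0.14 from limma. With the sample number as a block the same difference was called (adjusted p = 0.042 in limma).

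Of the channels that sense ATP, calcium or acid, Kcnj8 and Kcnj11, the pore subunits of the vascular and the neuronal ATP-sensitive channel, did not pass the test in any run. On its brightest probe set Kcnj11 differed by -0.11, 0.15, 0.18 and -0.03. A further Kcnj11 probe set had -0.43 in numbers 6-10 and -0.29 in numbers 11-15, and another had 0.29 and 0.32, none of them called. Kcnj8 differed by 0.09, -0.41, 0.01 and 0.30, so its sign was not the same across the runs. In numbers 16-20 the preconditioned arrays lay between 5.38 and 5.56 and the sham arrays between 5.04 and 5.30, without overlap, yet the adjusted p was 0.93 in limma, and such groups occurred in 1.14% of all probe sets there. In the other runs 0 of the 43 genes had groups that did not overlap, beside 4.27%, 3.66% and 2.21% of all probe sets. Kcnma1, the BK channel pore, was at 7.60 to 7.96 on the preconditioned and 7.88 to 8.23 on the sham arrays 11-15. That difference of -0.32 ± 0.09 had an adjusted p of 0.19, and the average over the runs was -0.12 ± 0.04 (adjusted p = 0.14 from limma). The second Kcnma1 probe set did not share this direction, with 0.10 in numbers 11-15 and 0.05 in the average. Kcnk2, the mechano- and lipid-sensitive TREK1 channel, differed by at most 0.10 in either direction, and Kcnk3, the acid-sensitive TASK1 channel, by -0.20 to 0.13. Kcnk13, a two-pore channel of the THIK branch, had the farthest value of all, with -0.58 ± 0.18 in numbers 16-20, where its preconditioned arrays lay between 4.57 and 5.41 and its sham arrays between 5.07 and 5.70 (adjusted p = 0.91 in limma). Kcne2, an auxiliary subunit known from the choroid plexus, differed by 0.36 in numbers 6-10 and by -0.47 in numbers 11-15. Its lowest sham value in numbers 6-10, at the floor, was on sham array 9, where the choroid plexus markers Ttr and Folr1 had a mean of 5.74, against 8.79 to 9.71 on the other arrays, and it was also at the floor on preconditioned array 11. Their part in these differences was not tested.

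Of the 32 genes under the level, Kcne3 was the only one that limma called between preconditioned and sham cortex, while 4, 6, 1 and 0 of the 32 had an unadjusted p under 0.05 in the 4 runs. Kcne3 encodes a single-pass auxiliary subunit (MiRP2) that binds Kcnq1 and Kv3 pores and changes when they open. It was given a result of its own after its call without the level had been seen, and its tests come from the fit of all 31042 probe sets. On preconditioned arrays 1 to 5 its deposited intensity was 51.3, 56.6, 62.5, 62.4 and 50.9. On sham arrays 1 to 5 it was 23.2, 12.0, 22.2, 4.83 and 24.8. Each preconditioned array was above every sham array, and 2 of the sham values lay under the floor. On preconditioned arrays 6 to 10 it was 66.3, 50.9, 42.6, 49.9 and 59.8, and on sham arrays 6 to 10 it was 30.4, 13.0, 16.4, 20.8 and 11.6. These groups did not overlap either. In numbers 11-15 the preconditioned arrays ranged from 4.13 to 21.9 and the sham arrays from 3.27 to 17.4, and in numbers 16-20 from 11.9 to 23.3 and from 3.61 to 20.4, so both groups overlapped near the floor.

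With 2 of 5 sham arrays raised to the floor in each run, the difference of Kcne3 was 1.49 ± 0.15 on the log2 scale in numbers 1-5, 2.81-fold, and 1.47 ± 0.15 in numbers 6-10, 2.76-fold, with adjusted p-values from limma of 6.9e-08 and 2.8e-07 (n = 5 and 5 in each). It was called there beside 1.25% and 1.28% of all probe sets. Because of those sham arrays the fold and the p-values depend on the floor, and the fold is not an exact value. With only the arrays of each comparison the adjusted p-values from limma were 0.006 and 0.041. With a floor of 1 the values were 1.92 (adjusted p = 0.038) and 1.62 (adjusted p = 0.097), so that the call in numbers 6-10 ended, and with a pseudocount of 32 they were 0.86 and 0.77. The call held in 28 of 28 settings in numbers 1-5 and in 27 of 28 in numbers 6-10, and it held whichever array of numbers 1 to 10 was left out. In numbers 11-15 the difference was 0.18 ± 0.15 (adjusted p = 0.87, beside 0.0451% of probe sets called) and in numbers 16-20 it was 0.02 ± 0.15 (adjusted p = 1, beside 0%). The effect differed between the runs (adjusted p = 1.2e-05, beside 0.499% of probe sets). In whole cortex, more cells that make Kcne3 and more Kcne3 RNA per cell cannot be told apart. Of the endothelial and mural markers, 3 of 6 were also higher in the preconditioned arrays 1-5, namely Flt1 by 1.16, Pecam1 by 0.53 and Vwf by 0.49, while Cldn5 differed by 0.11, Pdgfrb by 0.12 and Rgs5 by -0.14. The mean log2 level of these 6 markers was 6.93 to 7.05 there and 6.43 to 6.82 in sham. In numbers 6-10 it was 6.59 to 7.04 and 6.57 to 6.77, with 1 of 6 higher, Vwf by 0.54. In numbers 11-15, where Kcne3 was not called, it was 6.68 to 7.09 and 6.66 to 6.81, also with 1 of 6 higher. In numbers 16-20 it was 6.77 to 6.99 and 6.68 to 6.85, with 0 of 6. Of all probe sets above the level 2.39%, 2.22%, 0.0699% and 0% were called in the 4 runs. The part of these markers in the Kcne3 result was not tested.

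**Figure D2:**
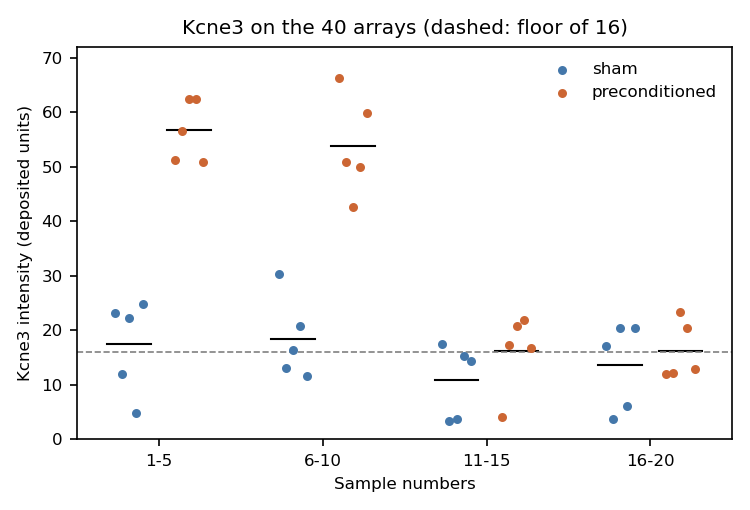
Deposited intensity of Kcne3 on each of the 40 arrays, by number run and group. Black bars are means of 5 arrays and the dashed line is the floor of 16. All 10 preconditioned arrays of numbers 1-5 and 6-10 lie between 42.6 and 66.3, above every other array.

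Of the pores that Kcne3 is known to bind, Kcnq1 was under the level, at a mean of 4.12. Kcnc4, the Kv3.4 pore, differed by -0.01 ± 0.15 in numbers 1-5. In numbers 6-10 it lay between 5.94 and 6.56 on the preconditioned and between 6.40 and 6.91 on the sham arrays, with a difference of -0.29 ± 0.15 (adjusted p = 0.32 in limma). Over the 8 means of group and run, the named genes with the highest Pearson correlation to Kcne3 were Shc4 and Tbl2 at 0.99 and Kdr, Stat3 and P4ha1 at 0.98, out of 10300. This likeness was looked up after the values of Kcne3 had been seen, the 8 means share their arrays and scaling, and it is given as a description.

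Between preconditioned and sham cortex a second probe set was called for 2 of the 43 genes, both of the A-type channel complex. Further probe sets of Kcnma1 and Kcnj11 differed in sign from the brightest, as given above, without a call. Of the 43 genes, 15 had further probe sets above the level, 19 in all. On its second probe set Kcnip1 lay lower in the preconditioned cortex by 0.27, 0.39, 0.33 and 0.18 in the 4 runs, with an average of -0.29 ± 0.06 (adjusted p = 0.0041 from limma), where the brightest had -0.07 ± 0.05. In numbers 6-10 this probe set was at 5.88 to 6.53 on the preconditioned and at 6.55 to 6.88 on the sham arrays, without overlap. In every other run its groups overlapped. The second Kcnd2 probe set was higher by 0.12, 0.19, 0.29 and 0.13, with an average of 0.18 ± 0.04 (adjusted p = 0.013), where the brightest had 0.07 ± 0.05. Neither was called within a run. When all probe sets of a gene were averaged, both genes were called in the average of the runs, so that these calls depend on the choice of probe set.

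Between the outer number runs in sham cortex, numbers 16-20 minus 1-5, limma called 8 of the 43 genes higher, against 6.94% of probe sets, and 0 lower, against 7.89%, with none lower at an unadjusted p under 0.05 either. Over all 4 sham runs the share called was near the background: limma's F-test called 7 of 43 (16.3%), against 13.7% of all probe sets, namely Kcnip4 (adjusted p = 0.0012), Kcnab2 (0.0022), Kcnq5 (0.0042), Kcnma1 (0.020), Kcnmb4 (0.021), Kcnk2 (0.023) and Kcnj4 (0.024). Without sham array 20 the count was 4. Between the outer sham runs 69.8% of the 43 genes had a difference above 0, against 47.7% of all probe sets, and the median difference was 0.12 against -0.01. Steps between neighbouring runs were not called by limma in any of the 43: 0 from 1-5 to 6-10 (1.26% of probe sets), 0 from 6-10 to 11-15 (0.29%) and 0 from 11-15 to 16-20 (0.65%), with 7, 2 and 6 genes at an unadjusted p under 0.05. The preconditioned arrays, which share no sample with the sham arrays, gave 7 genes higher, against 9.59%, and 0 lower, against 8.04%, of which 2 were lower at an unadjusted p under 0.05. On the brightest probe sets the calls between the outer runs were thus all higher in both groups. Further probe sets under the level, tested in the fit of all probe sets, went both ways: in sham Kcnk10 was lower by -0.84 ± 0.22 (adjusted p = 0.015) while Kcnab2 was higher by 0.91 and Kcnk3 by 0.33, and in preconditioned cortex Kcna6 was higher by 0.84 and Kcnk3 lower by -0.33.

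**Figure D3:**
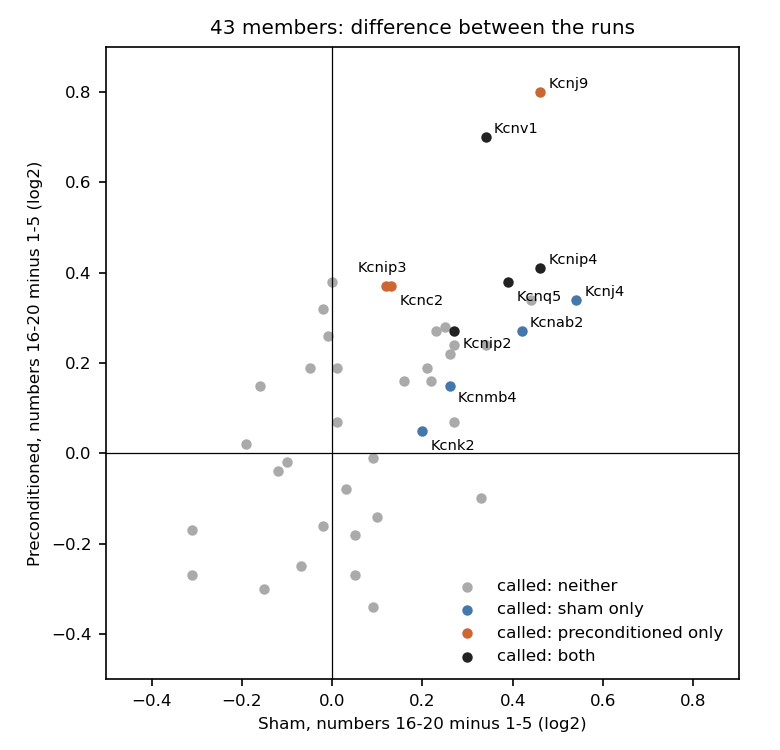
Difference between numbers 16-20 and 1-5 on the log2 scale for the 43 genes, in sham (horizontal) and preconditioned cortex (vertical). Colours show in which group limma called the gene. Kcnip2, Kcnip4, Kcnq5 and Kcnv1 were called in both, and 23 genes lie above 0 in both.

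The direction was shared by both groups for 30 of the 43 genes (69.8%), 23 of them higher and 7 lower, beside 68.9% of all probe sets, so this share is that of the background. The 2 differences correlated across genes with a Pearson r of 0.62, against 0.55 over all probe sets, as a description, since genes are not independent replicates. Of the 11 genes called in either group 4 were called in both, and the difference between the shifts was called by limma in 0 of 43 (0.43% of probe sets), with 3 at an unadjusted p under 0.05. A combined comparison, the mean of both groups' differences, was therefore added after these results had been seen. It called 15 genes higher, against 14.8% of probe sets, and 0 lower, against 14.6%, with 2 lower at an unadjusted p under 0.05. These were 3 of 4 Kcnip, both Kcnab, 3 of 6 Kcnk, 2 of 7 Kcnj, 1 of 3 Kcnc, 1 of 3 Kcnh, 1 of 4 silent subunits, 1 of 2 Kcnq and 1 of 2 BK genes, while 0 of 4 Kcna and 0 of 3 Kcnd genes were called, with medians of 0.00 and -0.02.

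**Figure D4:**
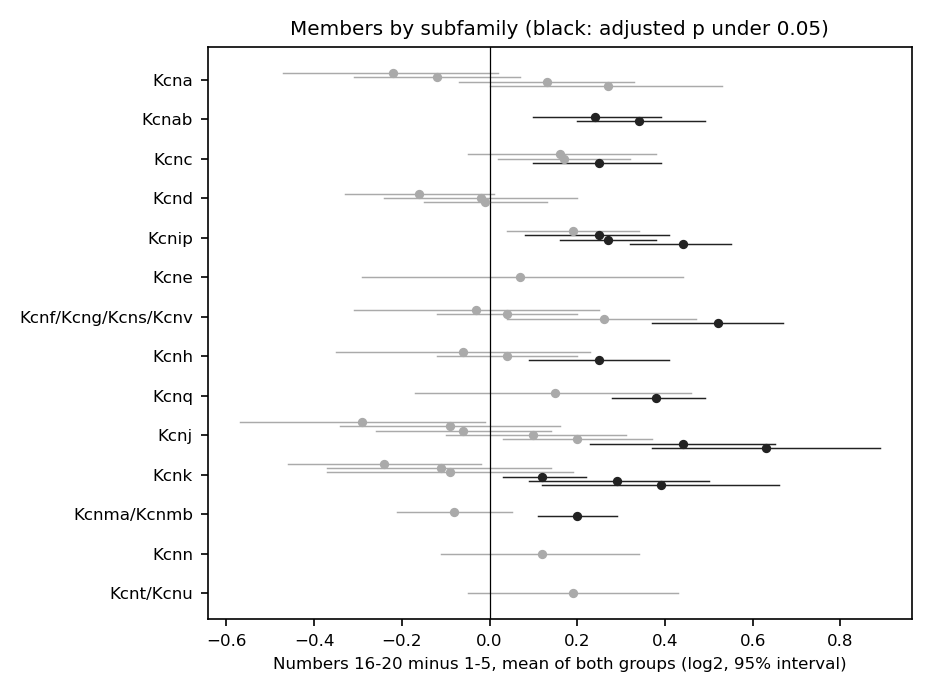
Numbers 16-20 minus 1-5 as the mean of both groups, on the log2 scale, for each of the 43 genes by subfamily, with 95% intervals. Black marks the 15 genes with an adjusted p under 0.05, which all lie above 0, and the 3 Kcnd genes lie between -0.16 and -0.01.

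The Kcnip genes encode KChIPs, calcium sensors that bind the Kcnd (Kv4) pores and bring them to the membrane. Kcnip4 was at 7.88, 7.89, 7.91, 8.03 and 8.08 on sham arrays 1 to 5 and at 8.30, 8.64, 8.35, 8.40 and 8.39 on sham arrays 16 to 20. All of the later arrays were above all of the earlier ones, and the means of the runs between, 8.13 ± 0.10 and 8.20 ± 0.11 (SD, n = 5), lay between them. The difference was 0.46 ± 0.08 (SE; 1.37-fold, adjusted p = 2e-04 from limma) in sham and 0.41 ± 0.08 (adjusted p = 0.00031) in preconditioned cortex, where the groups of arrays did not overlap either. Kcnip2 rose by 0.27 ± 0.08 in sham (adjusted p = 0.021) and by 0.27 ± 0.08 in preconditioned cortex (adjusted p = 0.015, and 0.066 without preconditioned array 1). Kcnip3, also known as the transcription factor DREAM, lay at 7.41, 7.66, 7.66, 7.75 and 7.42 on preconditioned arrays 16 to 20 and at 7.32, 7.07, 7.44, 7.11 and 7.13 on preconditioned arrays 1 to 5. It rose there by 0.37 ± 0.11 (adjusted p = 0.021), with 0.12 ± 0.11 in sham, and the call ended without preconditioned array 2, 17 or 19 (0.33 to 0.35). Kcnip1 had 0.22 ± 0.11 and 0.16 ± 0.11, not called. The second probe sets of Kcnip2, Kcnip3 and Kcnip4 rose in both groups, by 0.57, 0.57 and 0.39 in sham and 0.49, 0.74 and 0.64 in preconditioned cortex. The pores they bind went no common way: Kcnd2 had -0.16 ± 0.10 in sham and 0.15 ± 0.10 in preconditioned cortex, Kcnd3 -0.07 and -0.25, and Kcnd1 0.10 and -0.14. Dpp10 and Dpp6, the other auxiliary subunits of Kv4 channels, had 0.19 ± 0.07 and 0.13 ± 0.04 in the combined comparison (adjusted p = 0.038 and 0.013). In sham Dpp10 had 0.01 ± 0.10 (adjusted p = 0.94 in limma), and it was called higher in preconditioned cortex. Whether its shift differed between the groups was not tested. Of 23 genes whose products accompany potassium channels, 4 were called in the combined comparison, all higher, beside 29.4% of all probe sets called either way.

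**Figure D5:**
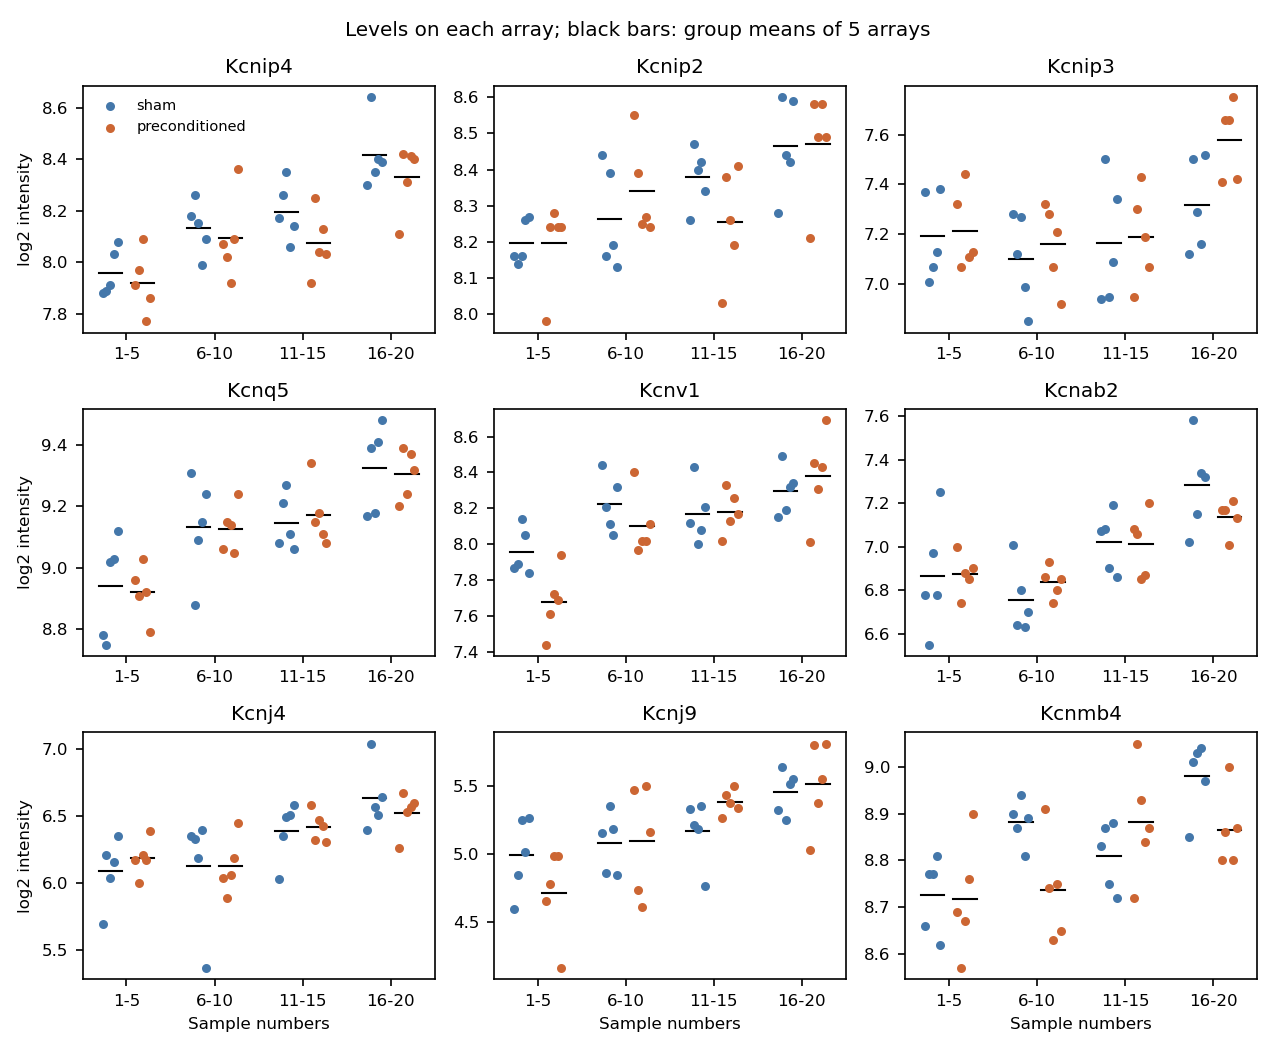
Log2 intensity on each array of 9 genes called in at least 1 group between numbers 1-5 and 16-20, by number run and group, with black bars for the means of 5 arrays. Each panel has its own axis, which does not start at 0, and levels are not compared between panels. Kcnip4 and Kcnq5 are lowest in numbers 1-5 and highest in 16-20 in both groups.

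Kcnq5, a pore of the M-current that limits repetitive firing, was at 8.78, 8.75, 9.02, 9.03 and 9.12 on sham arrays 1 to 5 and at 9.17, 9.39, 9.18, 9.41 and 9.48 on sham arrays 16 to 20. The 5 preconditioned arrays 1-5 lay between 8.79 and 9.03 and the arrays 16-20 between 9.20 and 9.39, so neither group overlapped. How many of all probe sets lacked overlap between the outer runs was not counted. For every gene such a lack is thus a description only. The differences were 0.39 ± 0.07 (1.31-fold, adjusted p = 0.00065) and 0.38 ± 0.07 (adjusted p = 0.00037). Its second probe set, of mean 5.16, had -0.27 ± 0.30 and -0.02 ± 0.30, and with the mean of both the calls ended (0.06, adjusted p = 0.85, and 0.18, adjusted p = 0.45). Kcnq3, its usual partner, had -0.02 and 0.32, not called.

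Kcnv1 encodes a subunit that forms no channel alone and lowers the current of Kcnb and Kcnc pores. Its preconditioned arrays 16 to 20 were at 8.01, 8.45, 8.31, 8.43 and 8.69, all above the 7.44 to 7.94 of preconditioned arrays 1 to 5 given above. The rise was 0.70 ± 0.10 (1.62-fold, adjusted p = 7.2e-06) there and 0.34 ± 0.10 (adjusted p = 0.020) in sham, where the arrays 16-20 lay between 8.15 and 8.49 and the arrays 1-5 between 7.84 and 8.14. The difference between these rises did not pass the test (adjusted p = 0.34 in limma). Kcnc2, the Kv3.2 pore of interneurons, rose by 0.37 ± 0.10 in preconditioned cortex (adjusted p = 0.011) and had 0.13 ± 0.10 in sham. Without preconditioned array 17 the value was 0.30 (adjusted p = 0.052). Of the beta subunits, which bind Kcna pores, Kcnab2 rose by 0.42 ± 0.10 in sham (adjusted p = 0.0049), with overlapping arrays (6.55 to 7.25 in numbers 1-5 and 7.02 to 7.58 in 16-20), and had 0.27 ± 0.10 in preconditioned cortex, whose arrays did not overlap (6.74 to 7.00 and 7.01 to 7.21; adjusted p = 0.063). Kcnab1 was called in the combined comparison, at 0.24 ± 0.07 (adjusted p = 0.010). Kcna1, the pore under the level, was called there as well, in the fit of all probe sets, at 0.80 ± 0.28 (adjusted p = 0.043, beside 16.3% of probe sets), with its arrays between the floor and 5.97.

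Among inward rectifiers, Kcnj9 is the GIRK3 subunit of the G-protein-gated channel and Kcnj4 the strong rectifier Kir2.3. Kcnj9 was at 4.65, 4.78, 4.98, 4.98 and 4.16 on preconditioned arrays 1 to 5 and at 5.03, 5.80, 5.37, 5.55 and 5.81 on preconditioned arrays 16 to 20. The groups did not overlap, and the difference of 0.80 ± 0.18 (1.74-fold, adjusted p = 0.0018) was the highest of the 43 genes. In sham Kcnj9 lay between 4.59 and 5.26 on arrays 1-5 and between 5.25 and 5.64 on arrays 16-20, and its difference of 0.46 ± 0.18 was not called (adjusted p = 0.077). Its GIRK partners Kcnj6 and Kcnj3 had 0.21 and 0.01 in sham and 0.19 and 0.19 in preconditioned cortex, not called. Kcnj4 rose by 0.54 ± 0.15 in sham (1.45-fold, adjusted p = 0.011), without overlap between arrays 1-5 (5.70 to 6.35) and 16-20 (6.40 to 7.04). It had 0.34 ± 0.15 in preconditioned cortex (adjusted p = 0.11), and its second probe set rose in both groups, by 0.65 and 0.84.

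Of the BK group, Kcnmb4, the neuronal beta subunit that makes BK channels resistant to toxin and slows their gating, was at 8.66, 8.77, 8.77, 8.81 and 8.62 on sham arrays 1 to 5 and at 8.85, 9.01, 9.03, 9.04 and 8.97 on sham arrays 16 to 20. It rose there by 0.26 ± 0.06 (adjusted p = 0.0048), and had 0.15 ± 0.06 in preconditioned cortex (adjusted p = 0.095). Its F-test call ended with median centring (adjusted p = 0.080) and without sham array 1, 5, 18 or 19. Kcnma1 was highest in sham numbers 6-10, at 8.27 ± 0.20 (SD, n = 5), and lowest in numbers 16-20, at 7.90 ± 0.09, and its F-test call ended without sham array 10 (adjusted p = 0.075) and without sham array 20 (adjusted p = 0.061), and with median centring (0.059) or the mean of its probe sets (0.95). Among two-pore channels Kcnk2 rose by 0.20 ± 0.07 in sham (adjusted p = 0.039), a call that ended without any 1 of sham arrays 1, 4, 5, 17, 18, 19 and 20. Its call in the combined comparison (0.12, adjusted p = 0.048) ended in 5 of 10 other settings and without 22 of the 40 arrays taken 1 at a time, with adjusted p up to 0.11. Kcnk4, the TRAAK channel, and Kcnk1, TWIK1, were called in the combined comparison, at 0.39 ± 0.13 and 0.29 ± 0.10 (adjusted p = 0.023 and 0.027), as was Kcnh3, an ELK channel of forebrain neurons, at 0.25 ± 0.08 (adjusted p = 0.013). The Kcnk4 call ended without sham array 1 or 2, and that of Kcnk1 without sham array 1, 3, 17 or 20 or preconditioned array 3, 17 or 20. Kcnk10, TREK2, had -0.24 there and Kcnj14 -0.29, not called, but the second Kcnk10 probe set, of mean 4.93, was called lower, at -0.71 ± 0.15 (adjusted p = 0.0012).

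Single arrays bore on several of these sham calls. Without sham array 17 the count between the outer runs was 4 in place of 8, because Kcnip2 (0.23, adjusted p = 0.070), Kcnj4 (0.44, 0.055), Kcnk2 (0.19, 0.080) and Kcnv1 (0.29, 0.072) no longer passed, and without sham array 1 it was 5, because Kcnj4, Kcnk2 and Kcnv1 did not. Kcnip2 and Kcnv1 were also lost without sham array 2 and Kcnip2 without sham array 20. The calls of Kcnip4, Kcnq5, Kcnab2 and Kcnmb4 in that comparison held whichever single array was left out, as did those of Kcnip4, Kcnq5, Kcnv1 and Kcnj9 in preconditioned cortex. By the likeness rule, the genes of the 43 whose 8 means of group and run were most like those of Kcnip4 were Kcnq5 and Kcnip2 (Pearson r = 0.95), Kcnk1 (0.94), Kcnab1 (0.89) and Kcnv1 (0.85), over means that share their arrays and scaling.

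Some markers of cell types and of maturity moved between the same runs. In the combined comparison 14.8% of all probe sets were called higher and 14.6% lower, and the marker counts below stand beside these shares. In the combined comparison 3 of 4 oligodendrocyte genes were higher (Mbp by 1.40, Mag by 0.74 and Cnp by 0.45), as were 4 of 4 microglia and 4 of 6 astrocyte markers, 2 of 5 excitatory markers (Slc17a7 by 0.59 and Camk2a by 0.82) and 2 of 6 inhibitory markers (Vip by 0.52 and Gad2 by 0.37). Of 5 genes of immature neurons 3 were lower, Sox11 by -0.74, Dcx by -0.71 and Dpysl3 by -0.40, and so were 3 of 3 cell cycle genes. The mean log2 level of the oligodendrocyte markers was 7.95 to 8.31 on sham arrays 1-5 and 8.32 to 9.10 on sham arrays 16-20, that of the microglia markers 5.77 to 6.42 and 6.40 to 7.04, and that of the immature neuron genes 10.58 to 10.91 and 10.24 to 10.46. The 4 striatal markers had 2 called higher in sham (Ppp1r1b by 0.50 and Adora2a by 0.32), beside 6.94% of all probe sets. Their mean level was 6.87 to 7.22 on sham arrays 1-5 and 7.33 to 7.52 on sham arrays 16-20. None was called in preconditioned cortex, where they lay at 7.12 to 7.35 and 7.07 to 7.42. The 3' to 5' ratio of actin moved as well, from 1.69 to 1.82 on preconditioned arrays 1-5 to 1.45 to 1.61 on preconditioned arrays 16-20, without overlap, and from 1.51 to 1.90 to 1.46 to 1.63 in sham, with overlap. The part of these changes in the differences of the potassium channel genes was not tested. The runs cannot be told apart from any time, litter or processing day that they may stand for.

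Of 30 genes whose products bind, anchor or accompany potassium channels, 23 passed the level. Between the outer sham runs 2 of 23 were called, beside 14.8% of all probe sets, both higher: Slc12a5, the neuronal potassium-chloride exporter KCC2, by 0.41 ± 0.10 (adjusted p = 0.0058), and Atp1b1, a sodium-potassium pump subunit, by 0.31 ± 0.09 (adjusted p = 0.021). In preconditioned cortex 3 of 23 were called, beside 17.6% of all probe sets, all higher, namely Hcn2, a pacemaker channel, by 0.40 ± 0.13, Dpp10 by 0.36 ± 0.10 and Dlg2, a scaffold that clusters Kv1 channels, by 0.30 ± 0.11. Preconditioned minus sham called 0 of 23 within the runs and 1 in their average, beside 4% of all probe sets, Slc12a2, the sodium-potassium-chloride importer NKCC1, at 0.16 ± 0.04 (adjusted p = 0.019).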

How the data were processed

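Per the labels, total RNA of rat cerebral cortex was hybridised to 1-colour Affymetrix arrays, and groups and numbers came from the sample descriptions. The deposited values are linear probe set intensities; the software and scaling were not stated in the labels (not given in the sources used here), but the mean without the lowest and highest 2% was 150 on all 40 arrays. No 2 arrays were identical. Of 31099 probe sets 57 controls were left out, and 18611 of 31042 passed the level. Shares over all probe sets count all of these, of which 14265 had 1 gene and some shared a gene. The 43 genes count 1 probe set each, so the 2 units are not the same. Names came from the platform annotation, in which 20826 probe sets had 1 gene, 436 several and 9780 none; all 75 Kcn genes matched RefSeq by gene ID. Of all values 25.7% lay at the floor, and 0.174% of those of the 43 genes. Limma 3.58.1 in R 4.3.3 (lmFit, eBayes with a mean trend, two-sided) fitted 8 means of group and run over all 40 arrays, with Benjamini-Hochberg adjustment over all probe sets fitted and a threshold of 0.05; the fit was tested on simulated data with 200 changed probe sets. Differences are log2 with SE and intervals are 95%. The number of arrays limits the precision.

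The genes named were those called in a comparison of preconditioned and sham or of the outer sham runs, up to 3 per other sham comparison, a fixed set whatever their result (Kcnj8, Kcnj10, Kcnj11, Kcnc1, Kcna1, Kcna2, Kcnd2, Kcnip1, Kcnk2, Kcnk3 and Kcnma1; some items are not reported here), called partner genes and the 5 most like Kcnip4. All others were named after their values were seen. The members and lists were chosen with earlier results of these data known. Other settings tried were a floor of 1 or a pseudocount of 32, quantile normalization or centring on array medians, a minimum mean log2 of 6 or none, the mean of all probe sets of a gene, no mean trend, only the arrays compared, leaving out preconditioned arrays 5 and 6 or each array, the sample number as a block, and the group without the run.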

Additional observations from a re-analysis of the deposited data

Results flagged for a closer look

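In groups of 5 arrays, 25 of the 43 genes were checked for an array standing apart from the other 4, and 10 of 200 pairs of gene and group (5%) showed one; chance gives about 1 in 20 groups. On the log2 scale Kcnh3 was low on preconditioned array 3 (7.06, others 7.51 to 7.64), and Kcnip2 was low on preconditioned arrays 1 (7.98, others 8.24 to 8.28) and 16 (8.21, others 8.49 to 8.58). Kcnip4 was high on sham array 17 (8.64, others 8.30 to 8.40). On sham array 10 Kcnj4 was low (5.37, others 6.19 to 6.40) and Kcnk4 high (5.90, others 5.32 to 5.49). On sham array 12 Kcnk13 was low (4.76, others 5.39 to 5.50), as was Kcnma1 (7.88, others 8.16 to 8.23). Kcnj9 was low on sham array 15 (4.76, others 5.18 to 5.35) and Kcnk1 on sham array 16 (6.19, others 6.62 to 6.78). Kcne3, under the level, was flagged at 4.12 on sham array 11 only because the others were set to the floor of 4. The deposited intensities on sham arrays 11 to 15 were 17.4, 3.27, 3.69, 15.2 and 14.3, so array 11 did not stand apart. The response of Kcne3 to preconditioning differed between the runs (adjusted p = 1.2e-05 from limma's interaction test, which was not rerun with other floors).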

How the results depend on the processing

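Signs were followed for the calls and for the gene of smallest p in each preconditioned minus sham comparison. None of these changed sign under any alternative run. The signs of the other differences were not followed, and some differed between the probe sets of a gene. Preconditioned minus sham, called in 0 of the 43 genes, gave 1 gene with median centring in numbers 6-10 (Kcnh1), 1 gene without the filter on level in numbers 1-5, 1 in numbers 6-10, 1 in the average, 1 in the test of the effect across runs and 1 in the difference of the run shifts (Kcne3 in each), and 2 in the average with the mean of all probe sets (Kcnip1 and Kcnd2). These 0 counts were 0 whichever single array was left out. The 7 genes of the sham F-test ranged from 4 to 9 and the 8 of sham numbers 16-20 minus 1-5 from 4 to 10 when 1 array was left out. The counts of 7 in preconditioned cortex and 15 in both groups stayed within 1.5 times under every alternative run. Same-numbered preconditioned and sham samples were not taken as pairs in the main fit, since the labels tie no sample to another. Their deviations correlated by 0.03 to 0.39 (median 0.16), over 0.1 in 15 of 20 pairs. Of the sham arrays 17 of 20 were closest to their own number among the 5 preconditioned arrays of their run, so samples of the same number shared variation. The main fit leaves this out. Over all probe sets it called 444 in numbers 1-5 and 413 in numbers 6-10, where the block fit called 537 and 677. With the replicate block 1 gene was called in numbers 1-5 (Kcnv1, -0.28, adjusted p = 0.042 in limma), and no other count of the 43 genes moved by over 1.5 times. The fold and the adjusted p of genes near the floor, such as Kcne3, depend on the floor. With 5 arrays a group, differences within runs smaller than the half-width of the unadjusted intervals could not be called. Larger ones could also be missed after adjustment over all probe sets.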
